A study of Homo sapiens with 6 samples.

Results

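GABRA4 and 6 related genes (GABRB1, GABRA2, GABRG1, GABRA5, GABRE and GABRQ) encode subunits of the GABA-A receptor. Their transcripts were followed in fibroblasts with an inducible Ras oncogene switched on, with and without knockdown of sin-lncRNA. The 7 genes were picked by name from a table of 57819 genes. GABRA4 was picked because it had fallen strongly in the very contrast described here, and the related genes were added with that result known, so their values in this contrast are given as a description and without a test. RNA was read in 6 libraries, 3 per group, from IMR90 ER:Ras cells. IMR90 cells are human lung fibroblasts. ER:Ras is a Ras oncogene joined to an estrogen receptor domain, which 4-hydroxytamoxifen (4OHT) switches on. All 6 libraries, controls included, came from cells given 200 nM 4OHT for 3 days, and no cells without 4OHT are among them. Controls received a scrambled siRNA (siSCR) and knockdowns an siRNA against sin-lncRNA (si1). The sample labels call this siRNA si1, while the table's column names carry si1.3, and the ending is not explained, so whether 1 or more targeting siRNAs were used is not known here.

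GABA-A receptors are chloride channels built from 5 subunits around a pore and opened by the transmitter GABA. In the brain most hold alpha and beta subunits with a gamma subunit, while delta, epsilon or theta can take a place in rarer forms, and alpha4 receptors are known from sites outside synapses. The genes lie in clusters. GABRG1, GABRA2, GABRA4 and GABRB1 (subunits gamma1, alpha2, alpha4 and beta1) sit side by side on chromosome 4, GABRA5 (alpha5) on chromosome 15, and GABRE and GABRQ (epsilon and theta) on chromosome X. Subunit transcripts have also been described in cells that are not neurons.

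Since GABRA4 and GABRB1 are neighbours that both dropped, their promoters are shown, together with those of GABRQ, which also dropped, and GABRA2, a cluster member that moved little. Each runs from 250 bases before to 50 bases after a gene start, 5′ to 3′ on the strand of the gene, from RefSeq on GRCh38.p14, which gave a promoter for 6 of the 7 genes (all but GABRA5). Capitals mark matches on either strand to a set of short motifs. For EGR factors the search used the core GCGTGGGCG and, added after the first search, its shorter part GTGGGCG. For CREB-type factors it used the full CRE, TGACGTCA, and also the shorter TGACG, whose matches are not in capitals. The AP-1 site was searched as TGACTCA and the E-box as CACGTG. The GC box of SP factors was GGGCGG, which can overlap the shorter EGR form. The TATA box was TATAAA and the CCAAT box was named by its letters. The NRF1 site was searched by its palindromic core.
GABRA4, chr4:46993532-46993831, minus strand: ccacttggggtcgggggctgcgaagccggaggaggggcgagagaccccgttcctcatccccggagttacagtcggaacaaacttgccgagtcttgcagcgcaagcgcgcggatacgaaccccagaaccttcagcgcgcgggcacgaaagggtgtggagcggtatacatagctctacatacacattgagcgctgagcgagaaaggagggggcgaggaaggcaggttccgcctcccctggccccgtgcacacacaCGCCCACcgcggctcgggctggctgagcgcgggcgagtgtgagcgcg
GABRB1, chr4:47031317-47031616, plus strand: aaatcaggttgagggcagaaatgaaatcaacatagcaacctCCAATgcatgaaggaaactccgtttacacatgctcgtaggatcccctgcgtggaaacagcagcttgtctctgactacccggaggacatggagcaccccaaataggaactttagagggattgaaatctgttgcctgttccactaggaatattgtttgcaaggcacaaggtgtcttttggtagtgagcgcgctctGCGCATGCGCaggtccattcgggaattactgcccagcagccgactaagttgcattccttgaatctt
GABRQ, chrX:152637645-152637944, plus strand: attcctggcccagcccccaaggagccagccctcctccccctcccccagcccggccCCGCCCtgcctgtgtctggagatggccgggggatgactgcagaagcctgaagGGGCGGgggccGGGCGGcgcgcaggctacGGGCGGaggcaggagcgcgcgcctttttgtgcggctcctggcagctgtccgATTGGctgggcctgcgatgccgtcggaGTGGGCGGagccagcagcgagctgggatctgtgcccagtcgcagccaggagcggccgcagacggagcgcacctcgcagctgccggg
GABRA2, chr4:46390251-46390550, minus strand, the first of 3 starts: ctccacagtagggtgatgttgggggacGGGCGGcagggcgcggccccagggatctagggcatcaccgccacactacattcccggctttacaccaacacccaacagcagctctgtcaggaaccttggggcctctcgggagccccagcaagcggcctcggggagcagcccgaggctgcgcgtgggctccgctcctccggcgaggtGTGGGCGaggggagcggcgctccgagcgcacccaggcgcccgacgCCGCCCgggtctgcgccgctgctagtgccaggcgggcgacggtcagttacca

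Of these letters, the GABRA4 window held only the shorter EGR form, on the opposite strand at bases 254 to 260 of the window. That form occurred in 9.61% of 27305 promoters of the same length, and it was also in the windows of GABRA2 and GABRQ. The 9-letter EGR core, present in 0.784% of promoters, was in none of the 4 windows. The GABRB1 window held the NRF1 letters at bases 235 to 244, which 1.36% of promoters hold, and a CCAAT, which 35.7% hold. GABRQ held 5 GC-box matches and GABRA2 2, against 44.6% of promoters with at least 1. The GABRE window, which is not shown, held as many GC-box matches as that of GABRQ, and GABRE was higher in knockdowns. GABRQ also held a CCAAT match, on the opposite strand at bases 188 to 192. In base composition the pair differed: the GABRA4 window was 66% G and C with 32 CpG, and that of GABRB1 48.7% with 10, where the median promoter had 58.3% and 14. The RefSeq starts of GABRA4 and GABRB1 lie 38.0 kb apart and point away from each other. In the deposited table, which is on hg19, GABRB1 instead begins inside GABRA4, and the records overlap by 685 bases on opposite strands. In GENCODE 29, 204 exon bases are shared by the pair, of 12131 in GABRA4 and 3140 in GABRB1. Which start was used in these cells cannot be read from counts per gene, and as the strand setting of the counting is not given, reads in the shared bases are uncertain.

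Library depth ran from 30271192 to 50913672 reads in genes in controls and from 22117324 to 27882280 in knockdowns, so that every knockdown library was the shallower. The targeted lncRNA, listed in the table under a clone name and matched by its gene ID, stood at 13.3% of its control level. In this bulk RNA, fewer cells of a type and less RNA per cell cannot be told apart. Of 8 fibroblast markers, 3 rose and 5 fell (limma, Benjamini-Hochberg adjusted p under 0.05), where 41.0% of all genes tested were called. Their summed level in controls was 15189 to 16371 reads per 1000000 of effective library size (RPM, described under data processing). In knockdowns it was 10692 to 11119 RPM, with COL1A1 the main part of the drop. Neuron markers summed to 43.3 to 43.9 RPM in controls and 41.7 to 49.8 in knockdowns, nearly all of it SYT1 and MAP2. Of the 4 neuron markers tested, 1 fell in limma and 0 rose: SNAP25 went from 1.33 to 0.846 RPM. The 1 astrocyte marker tested, SLC1A3, also fell in limma, from 2.59 to 1.85 RPM. Their part in the subunit results was not tested. Of the 8 neuron markers listed, RBFOX3, STMN2, SLC17A7 and ELAVL3 were under 1 RPM in every library, and STMN2 had 0 reads. The 4 others had control means of 34.9 RPM for SYT1, 5.30 for MAP2, 1.95 for NEFL and 1.33 for SNAP25. Marker levels of leukocytes were 0.128 to 0.321 RPM over all libraries. The 8 astrocyte and endothelial markers include 1 not matched (PECAM1), and the sums of both lists were at most 3.06 RPM. The 1 endothelial marker tested, VWF, rose in limma, from 1.76 to 2.37 RPM. The 5 epithelial markers summed to 24.3 to 29.6 RPM, mainly KRT18 and KRT8, with EPCAM, CDH1 and SFTPC under 1 RPM. In limma KRT18 rose, from 17.3 to 22.0 RPM, and KRT8 fell, from 7.33 to 5.62 RPM.

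GABRA4 (ENSG00000109158.6, chromosome 4, 46920917 to 46996424, hg19, minus strand) encodes alpha4. Its level was 7.31, 6.96 and 6.48 RPM in control replicates 1, 2 and 3 and 1.88, 1.54 and 1.28 RPM in knockdown replicates 1, 2 and 3. The groups were far apart, and the highest knockdown library lay below the lowest control by more than the spread within either group. Means were 6.92 ± 0.42 RPM for controls and 1.57 ± 0.30 RPM for knockdowns (SD, n = 3), so 22.7% of the control level was left. The log2 fold change was -2.14 (SE 0.15), which is 4.41-fold lower. Only 3 of the 19048 genes tested had a lower value, the lowest being the targeted lncRNA itself at -2.86. Of all genes tested, 1.35% had a value of -1 or below. Behind the GABRA4 levels were between 209 and 326 reads in each control and between 36 and 42 in each knockdown. From the summed reads the knockdown level was 22.5% of control, with an exact 95% interval of 18.4% to 27.5%. This interval covers counting error only. It makes no allowance for the choice of GABRA4 by its fall, so it is no test. With any 1 library left out, the log2 fold change stayed between -2.28 and -2.01.

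GABRB1 (ENSG00000163288.9, chromosome 4, 46995740 to 47428461, hg19, plus strand) encodes beta1, a subunit type that lines the GABA-binding site together with an alpha subunit. It stood at 18.8, 17.3 and 17.7 RPM in controls and at 8.47, 6.70 and 7.09 RPM in knockdowns. As for GABRA4, no knockdown library reached the controls, and knockdown replicate 1 was the highest of its group. The mean level went from 17.9 ± 0.8 to 7.42 ± 0.93 RPM (SD, n = 3), which is -1.28 ± 0.09 (SE) as a log2 fold change, from 157 to 893 reads in a library. GABRB1 thus kept 41.3% of its control level where GABRA4 kept 22.7%. The ratio of GABRA4 to GABRB1 reads was 0.388, 0.403 and 0.365 in controls and 0.222, 0.229 and 0.181 in knockdowns, so the pair did not drop in proportion, and the ratio itself did not overlap between the groups.

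GABRA2 (ENSG00000151834.11, chromosome 4, 46250444 to 46477247, hg19, minus strand) encodes alpha2 and begins 519 kb from the start of GABRA4. It was by far the most abundant member, at 119.9, 133.4 and 129.8 RPM in controls and 114.9, 114.8 and 109.1 RPM in knockdowns. All knockdown libraries were below all controls, but the gap between the groups was smaller than the spread among controls. The mean level was 127.7 ± 7.0 RPM in controls and 112.9 ± 3.3 in knockdowns (SD, n = 3). The log2 fold change was -0.18 (SE 0.05), against a median of -0.04 over all genes tested. GABRG1 (gamma1), 870 kb from the start of GABRA4, had 0 reads in all 6 libraries, and a count of 0 leaves room for a level of 3 reads, equal to 0.0596 to 0.134 RPM by library. It was the 1 member below the filter on low values and gives no direction.

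**Figure D1:**
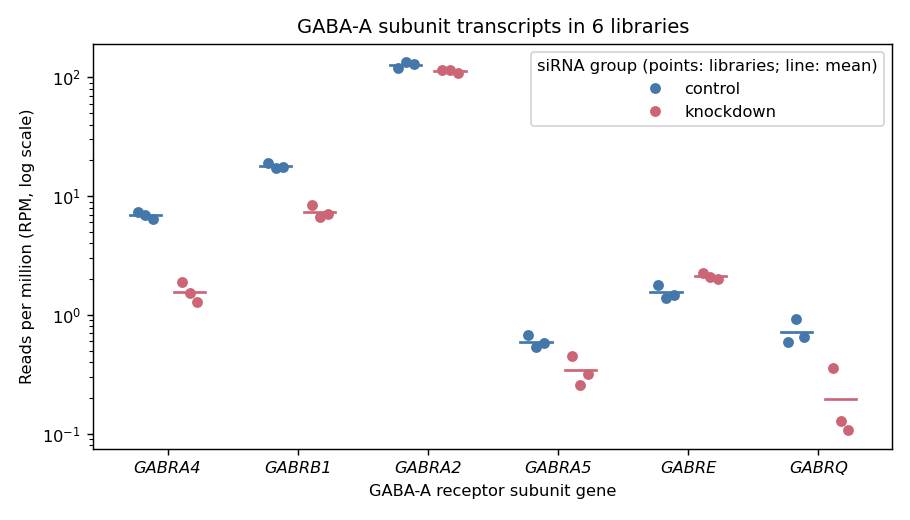
Level of the 6 detected GABA-A subunit genes in each library, in RPM on a log axis, with control libraries in blue, knockdown libraries in red and a line at each group's mean (n = 3). GABRA4 and GABRB1 show gaps wider than the spread within either group, and GABRQ a gap narrower than the spread of its knockdown libraries. GABRA2 stays above 100 RPM in all libraries, and GABRE is the 1 gene whose knockdown libraries lie above the controls.

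The members outside chromosome 4 were scarce. GABRQ (ENSG00000147402.7, theta, chromosome X, 151806637 to 151825999, hg19) stood at 0.587, 0.932 and 0.656 RPM in controls and 0.359, 0.128 and 0.107 RPM in knockdowns. The groups did not overlap, but the gap between them was smaller than the spread within either group, and the knockdown values are 8, 3 and 3 reads. Its log2 fold change was -1.91 (SE 0.43). From summed reads its knockdown level was 26.8% of control with an exact 95% interval of 14.03% to 47.6%. This again covers counting error only and is no test. An offset of 5 reads in place of 0.5 brought the log2 fold change to -1.14.

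GABRA5 (ENSG00000186297.7, alpha5, chromosome 15, 27111510 to 27194354, hg19) stood at 0.675, 0.533 and 0.576 RPM in controls and 0.448, 0.256 and 0.321 RPM in knockdowns, again without overlap. Its log2 fold change was -0.78 (SE 0.29), from 6 to 29 reads in a library, and -0.43 with the offset of 5 reads. GABRQ and GABRA5 passed the filter of 10 normalized reads on average with means of 14.5 and 14.7, and most of these reads came from the controls, so their passing it is no support for a difference. GABRE (ENSG00000102287.12, epsilon, chromosome X, 151121596 to 151143152, hg19) went the other way, at 1.79, 1.40 and 1.47 RPM in controls and 2.24, 2.09 and 1.99 RPM in knockdowns. Its log2 fold change was 0.45 (SE 0.16).

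In all, 5 of the 6 detected members had every knockdown library below every control, and 1 had every one above. Over all genes tested these shares were 28.3% and 22.8%, and since the members were chosen with this contrast known, the count shows nothing further. Falls of GABRA4's size were not shared across the chromosome 4 cluster: GABRB1 came nearest, GABRA2 moved by a small amount and GABRG1 was not detected. GABRE and GABRQ, both on chromosome X, differed in direction.

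Between genes, levels can be set in order only after allowing for length, here all exon bases of a gene joined together. This length was 12131 bases for GABRA4 and 3140 for GABRB1. It need not be that of the transcripts present, and the reads were counted on hg19 records. The order and shares below therefore depend on these lengths. In RPM per kilobase of exon (GENCODE 29), controls held 10.7 ± 0.6 of GABRA2, 5.72 ± 0.25 of GABRB1, 0.570 ± 0.035 of GABRA4, 0.162 ± 0.022 of GABRE, 0.143 ± 0.018 of GABRA5 and 0.117 ± 0.030 of GABRQ (SD, n = 3). The first 3 were each clear of the next in every library, while GABRE overlapped GABRA5 and GABRA5 overlapped GABRQ. In knockdowns the level per kilobase was 9.47 ± 0.28 for GABRA2, 2.36 ± 0.30 for GABRB1, 0.219 ± 0.013 for GABRE, 0.129 ± 0.025 for GABRA4, 0.0822 ± 0.0235 for GABRA5 and 0.0321 ± 0.0226 for GABRQ. GABRA4 thus moved from the third place to below GABRE and next to GABRR2 and GABRA5, with which its libraries overlapped.

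As a share of all GABA-A subunit transcripts per length, GABRA4 went from 3.26% ± 0.24 to 1.03% ± 0.15 and GABRB1 from 32.7% ± 2.0 to 18.8% ± 1.6, while GABRA2 went from 61.1% ± 2.3 to 75.6% ± 2.3 (SD, n = 3). The GABRA2 level per kilobase was 18.8 ± 1.9 times that of GABRA4 in controls and 74.8 ± 12.3 times in knockdowns. The sum over all 19 subunit genes was 17.5 ± 0.3 in controls and 12.5 ± 0.6 in knockdowns. Alpha and beta subunit transcripts were thus measured in both groups, with alpha2 and beta1 leading.

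**Figure D2:**
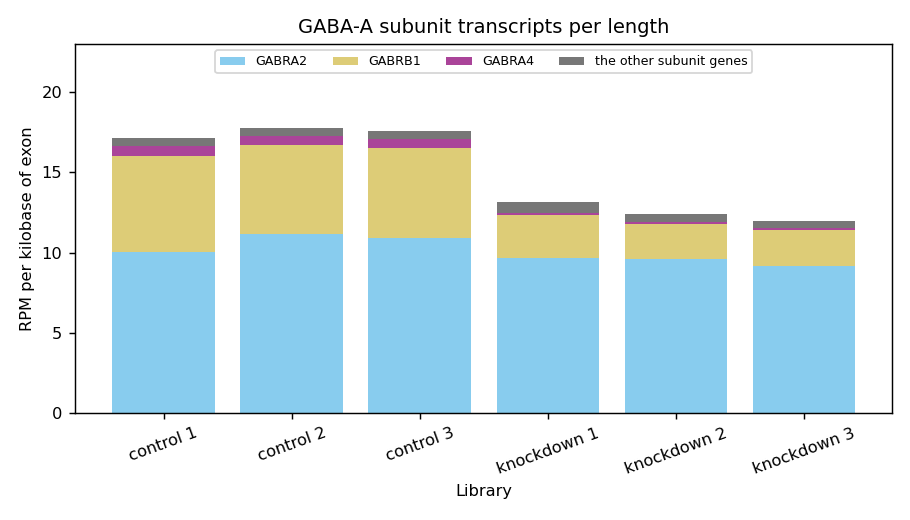
Summed level of the GABA-A subunit genes in each of the 6 libraries, in RPM per kilobase of exon, stacked by gene. The control columns reach 17.2 to 17.8 and the knockdown columns 11.99 to 13.2, with the GABRB1 layer (yellow) and the thin GABRA4 layer (purple) both reduced.

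The other 12 subunit genes were hardly measured. Of these, 7 had 0 reads in every library, among them GABRD (delta), a known partner of alpha4. A further 3 had 1 or 2 reads in all libraries together. Of the 12, 1 could be tested and did not pass in limma.

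Around GABRA4, and leaving out the other 3 subunit genes described above, 20 genes of the table lie within 1 Mb, and 10 were tested. Of these 10, 2 were lower and 0 higher in knockdowns (limma, Benjamini-Hochberg adjusted p under 0.05), or 20%. Over all genes tested 41.0% were called, 23.5% as lower and 17.5% as higher. RP11-731J8.2, a noncoding transcript on the strand of GABRB1 that begins 5515 bases beyond its end, stood at 9.43 ± 0.75 RPM in controls and 4.25 ± 1.13 in knockdowns (SD, n = 3). As a log2 fold change this was -1.17 ± 0.16 (SE), with an adjusted p in limma of 0.00019. It was lower in 3 of 3 knockdown libraries, and its change was of the size of that of GABRB1. Whether its reads are the tail of longer GABRB1 transcripts was not tested. RAC1P2, a pseudogene copy of RAC1, stood at -0.31 ± 0.05 (SE, log2 fold change; limma adjusted p = 0.00074), and since RAC1 itself was at -0.16, its reads are uncertain.

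The protein-coding genes next along the chromosome did not pass in limma. COX7B2, which lies directly beside GABRA4, had 0 reads. COMMD8, beyond GABRB1, stood at -0.08 ± 0.06 (SE, log2 fold change; limma adjusted p = 0.33). ATP10D, a lipid flippase gene, was at -0.11 ± 0.05 (SE; limma adjusted p = 0.12). CORIN (0.20), NIPAL1 (0.25) and NFXL1 (0.05), and the noncoding or pseudogene records RP11-320H14.1 (0.11), RP11-100N21.1 (-0.05) and RP11-121C2.2 (0.20), also had log2 fold changes that did not pass.

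**Figure D3:**
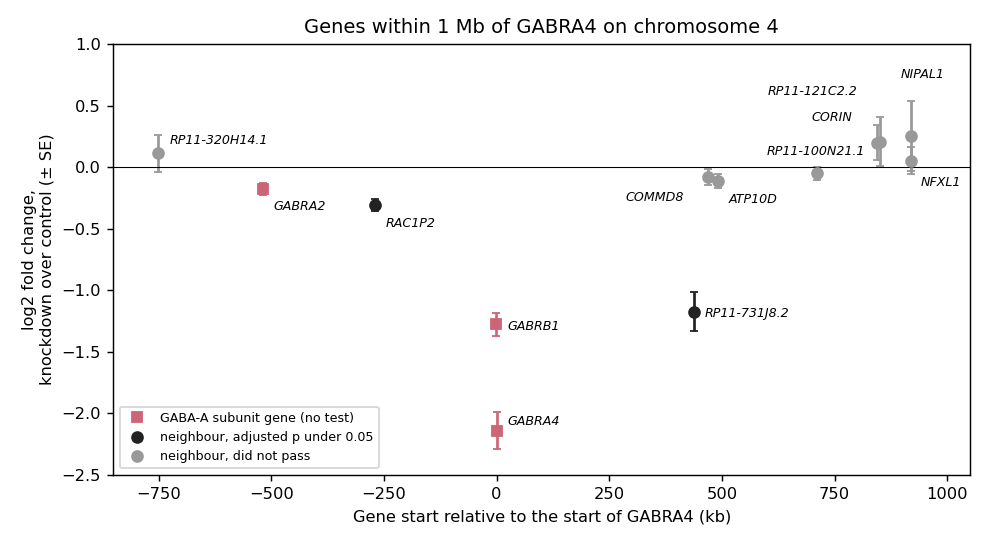
Log2 fold change (knockdown over control, ± SE, n = 3 per group) of the tested genes within 1 Mb of GABRA4, plotted by the distance of each gene start from that of GABRA4 in kb. GABRA4, GABRB1 and RP11-731J8.2 lie below -1, and the remaining 10 genes, GABRA2 among them, lie between -0.31 and 0.25.

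Genes that work with GABA and its receptors were read in 9 lists of 83 genes in all, the other subunits included, and 60 were tested. Of the 60, 18 rose and 16 fell (limma, Benjamini-Hochberg adjusted p under 0.05), which is 56.7% against 41.0% of all genes tested, with a median log2 fold change of 0.08 against -0.04. Of the 34 genes, 26 kept call and sign in every other fit.

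In the GABARAP family, small proteins that bind the gamma subunit and act in vesicle traffic and autophagy, 1 of 3 rose and 0 fell, or 33.3% called against 41.0% of all genes. GABARAPL1 stood at 84.5, 82.1 and 82.3 RPM in controls and 110.7, 110.3 and 112.03 RPM in knockdowns, a log2 fold change of 0.42 ± 0.04 (SE; limma adjusted p = 2.0e-05). GABARAP had overlapping groups, at 13.7, 9.59 and 13.99 RPM in controls and 7.84, 10.4 and 11.2 in knockdowns (log2 fold change -0.34, SE 0.16; limma adjusted p = 0.11). GABARAPL2 was at 0.07 (SE 0.05). Of 20 tested genes for receptor traffic and scaffolds, 5 rose and 3 fell, or 40% called against 41.0% of all genes. PLCL2, which binds GABARAP and the beta subunits, had the largest rise at 0.77 ± 0.11 (SE; limma adjusted p = 0.00026). GPHN, the gephyrin scaffold of inhibitory synapses, rose by 0.26 on the log2 scale, a call lost without control replicate 3 or knockdown replicate 3 (limma adjusted p = 0.017, with a range of 0.010 to 0.069 over the alternatives). RDX, or radixin, which anchors alpha5 receptors, fell by 0.41. ZDHHC3, which adds palmitate to the gamma subunit, fell by 0.29, and AP2M1, an adaptor for receptor uptake, fell by 0.24. CLPTM1, which holds subunits back in the cell, was at 0.01 (SE 0.05), and LHFPL4, a synaptic partner, had at most 1 read.

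The metabotropic GABA-B receptor was expressed, and of its 5 genes 1 rose and 2 fell, or 60% called against 41.0%. GABBR1 stood at 20.5, 18.3 and 17.01 RPM in controls and 21.3, 22.5 and 20.2 in knockdowns, and did not pass (log2 fold change 0.20; limma adjusted p = 0.064). GABBR2 rose by 0.21 on the log2 scale, a call lost in 8 of 17 other fits, including those without control replicate 1 or 3 or any 1 of the knockdown libraries (limma adjusted p = 0.040, with a range of 0.011 to 0.12 over these). KCTD12, an auxiliary subunit that sets how GABA-B receptors desensitize, fell from 174.2, 178.6 and 180.1 RPM in controls to 101.5, 82.1 and 93.9 RPM in knockdowns. Its log2 fold change was -0.95 ± 0.07 (SE; limma adjusted p = 2.1e-06), with no overlap between the groups. Its relative KCTD8 fell by 0.80 ± 0.11 (SE; limma adjusted p = 0.00025), and KCTD16, at 0.19, did not pass.

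The enzymes that make GABA, GAD1 and GAD2, had at most 1 read in any library, and SLC32A1, which loads GABA into vesicles, had 0. Of the 4 tested genes of synthesis and breakdown, 1 rose and 2 fell, or 75% called against 41.0% of all genes. ABAT, which breaks GABA down, was at 0.05 (SE 0.12). MAOB, part of a route to GABA from putrescine, fell from 16.2 ± 2.6 to 10.2 ± 0.9 RPM (SD, n = 3; log2 fold change -0.66; limma adjusted p = 0.00085), and ALDH9A1 of the same route fell by 0.26. ALDH5A1, the next step after ABAT, rose by 0.99 on the log2 scale from 0.438 ± 0.106 RPM, and this call was lost when control replicate 1 or 3 or knockdown replicate 3 was left out (limma adjusted p = 0.024, with a range of 0.010 to 0.11 over the alternatives). SLC6A6, a taurine carrier that also takes GABA, rose by 0.31.

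Of 7 tested chloride genes, 3 rose and 2 fell, all by 0.30 or less on the log2 scale, or 71.4% called against 41.0% of all genes. SLC12A2 (NKCC1), which brings chloride into cells, rose from 29.3 ± 1.2 to 36.1 ± 0.3 RPM (SD, n = 3). As a log2 fold change this was 0.30 ± 0.05 (SE), with an adjusted p in limma of 0.0012. SLC12A4 (KCC1), which carries it out, rose by 0.28. SLC12A5 (KCC2), the neuronal form, had 1 to 7 reads per library. OXSR1, a kinase acting on these carriers, fell by 0.22. Its relative STK39 rose by 0.14, a call lost in 9 of 17 other fits, again including those without control replicate 1 or 3 or any 1 of the knockdown libraries (limma adjusted p = 0.041, with a range of 0.020 to 0.12 over these).

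Of 9 tested kinases, phosphatases and anchors known to act on the receptor, 2 rose and 4 fell, or 66.7% called against 41.0%. PRKCE rose by 0.64 and PRKCA by 0.40 on the log2 scale. CAMK2D fell by 0.53 and PRKACB by 0.29. PPP1CA, a phosphatase subunit, fell by 0.21, and AKAP5, a kinase anchor, fell by 0.50, a call lost in 11 of 16 other fits, including those without control replicate 1 or 2 or knockdown replicate 2 or 3 (limma adjusted p = 0.044, with a range of 0.038 to 0.15 over these).

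Of 10 tested transcription factors tied to subunit promoters, 4 rose and 3 fell, or 70% called against 41.0%. With 4 to 10 genes tested in each of these lists, nothing is read from such shares. EGR3, an early-response factor described as an activator of the GABRA4 promoter in neurons, fell from 70.7, 57.0 and 60.6 RPM in controls to 32.7, 34.4 and 31.3 RPM in knockdowns. The groups did not overlap, and the log2 fold change was -0.93 ± 0.08 (SE; limma adjusted p = 5.6e-06). EGR2, of the same family, rose from 9.93, 9.72 and 9.18 RPM to 19.2, 21.09 and 20.2 RPM, a log2 fold change of 1.07 ± 0.07 (SE; limma adjusted p = 1.4e-06). EGR1 fell by 0.38 ± 0.06 (SE; limma adjusted p = 0.00028), from 190.2 ± 13.4 to 145.7 ± 5.3 RPM (SD, n = 3). EGR4 had 1 to 5 reads per library. CREB1 rose by 0.28 and CREM, whose short form opposes CREB1, fell by 0.35. SP4 rose by 0.50 and SP3 by 0.16, the latter a call lost in 5 of 17 other fits, including those without control replicate 3 or knockdown replicate 1 or 2 (limma adjusted p = 0.017, with a range of 0.0071 to 0.069 over these). NRF1, whose letters stand in the GABRB1 window shown above, was at 0.01 (SE 0.10), and SP1 at -0.01. Binding of these factors to the windows was not measured. Whether their levels have any part in the values of the subunit genes was not tested.

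**Figure D4:**
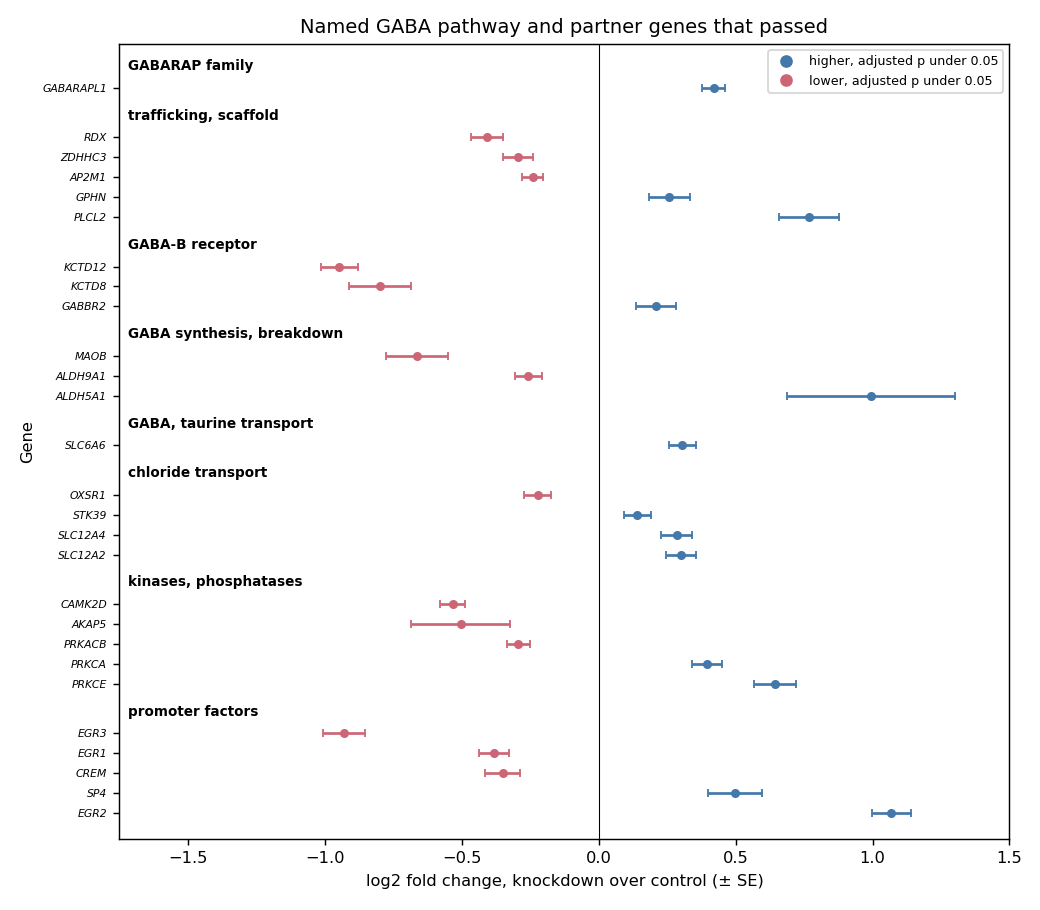
Log2 fold change (knockdown over control, ± SE, n = 3 per group) of 27 genes of the GABA pathway and its partners that passed in limma, at most 5 for each role, with 13 higher genes in blue and 14 lower genes in red. Both directions occur in most roles; KCTD12 and EGR3 lie furthest to the left and EGR2 furthest to the right.

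The genes whose pattern over the 6 libraries was most like that of GABRA4 were sought among 15111 tested genes with a mean of at least 50 normalized reads, the members left out. The measure was the root mean square distance between log2 values, each gene centred on its own mean. ARRDC4, an alpha-arrestin, was nearest at a distance of 0.158 and went from 61.3 ± 0.5 to 16.5 ± 1.8 RPM (SD, n = 3). Also among the nearest 5 were LCE2A (distance 0.281), a gene of the skin's cornified envelope, CERS1 (0.311), a ceramide synthase, and TXNIP (0.332), the alpha-arrestin that limits glucose uptake. For comparison, GABRQ stood at 0.427 and GABRB1 at 0.447, outside the nearest 5. ARRDC4 and TXNIP, at log2 fold changes of -1.90 and -1.57, are high-abundance genes with small spread, and likeness here rests on 6 libraries in 2 groups, so that it mostly records a fall of like size.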

How the data were processed

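The deposited table gives log2 values per gene, per the file headers and the values: each library's lowest value is shared by genes without reads, and removing an offset of 0.5 reads and an effective library size gave whole numbers (within 0.01 reads) for 100% of 346914 values. Per the submitters' processing notes, Bowtie2, featureCounts and hg19 were used; versions, strand setting and treatment of multiple matches are not given in the sources used here. Reads recovered in this way, per 1000000 of effective size, are called RPM.

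Groups and replicates came from the sample titles; nothing says that replicates were separate cultures, so p-values measure only the spread between these libraries. Genes with a mean of at least 10 normalized reads (19048) were fitted with limma 3.58.1 (R 4.3.3; lmFit, eBayes with intensity trend, group as the sole term) on the deposited log2 values, two-sided, with Benjamini-Hochberg adjustment at 0.05. Fold changes carry the 0.5-read offset and understate changes of scarce genes. An exact permutation test of 3 libraries against 3 cannot go below 0.1 and was not used. In simulated counts of 19048 genes, 200 were changed and all genes had the same dispersion. Of those changed by 0.5, 1 and 2 on the log2 scale, 46.9%, 90.4% and 98.4% were recovered, and 4.24% of calls were false. In the real data 41.0% of genes were called and dispersion was not held equal, so these rates need not hold there.

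Members and lists were chosen with earlier results of these data known. Named genes are all members, up to 5 called genes of each list by size, every tested neighbour, and the 5 genes most like GABRA4; some other list genes are named by role. A few genes that this rule selects are counted but not reported here by name. Lengths came from GENCODE 29 by gene ID, or by symbol for subunits with a changed ID.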

Additional observations from a re-analysis of the deposited data

How the results depend on the processing

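The results were recomputed in 17 other fits: offsets of 0.1 and 5 reads, no filter and a mean of at least 50, 3 other scalings (library totals, size factors, quantiles), voom, no intensity trend, thinning to the smallest library, the replicate block and each of 6 libraries left out. GABRA4 ran from -2.28 to -2.01 and GABRB1 from -1.38 to -1.21 on the log2 scale, GABRA2 from -0.22 to -0.14 and GABRE from 0.38 to 0.56; no member changed sign. GABRQ and GABRA5 moved most under the offset of 5 reads, to -1.14 and -0.43, and could not be fitted with a mean of at least 50. The count of all genes called ran from 5803 to 7885, that of partner genes from 27 to 35 (27 to 35 also with a library left out), and that of chromosome 4 neighbours stayed at 2. With the replicate block, 6454 genes and 28 partner genes were called. Deviations of same-numbered libraries correlated at -0.15, -0.18 and 0.07 over all genes tested. Counting noise also lowers such values, so they cannot decide whether the numbers pair the libraries, and the labels do not say. Depth limits GABRQ, GABRA5 and the subunits near 0 reads.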

Other observations

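Of the subunit genes too scarce to test, GABRR2 (rho2, of the GABA receptors once called GABA-C) had reads in every library. It stood at 0.0587, 0.0999 and 0.119 RPM in controls (2, 3 and 6 reads) and at 0.493, 0.342 and 0.249 RPM in knockdowns (11, 8 and 7 reads). The knockdown libraries were above the controls in all 3 cases although they were shallower. It fell under the filter of 10 normalized reads, was singled out after its values were seen and was not tested. Its relative GABRR1 had 1 read in all libraries together.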
